A study of Mus musculus with 8 samples.

Results

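The genes described here are 8 mouse genes of the endoderm, chosen by name and matched to the deposited transcripts through the GENCODE M21 annotation, out of 32780 genes summed in all. They are the forkhead factors Foxa1, Foxa2 and Foxa3, the nuclear receptor Hnf4a, the SOXF factors Sox7 and Sox17, and Cubn and Amn, which encode the uptake receptor cubilin and its partner amnionless. The study sequenced total RNA of TC1 cells, embryonic stem cells of the mouse with a wild-type genotype, at 2 stages. The 4 day 10 libraries came from TC1 cells on day 10 of a differentiation protocol, and the 4 day 0 libraries came from undifferentiated TC1 cells. Per the study's design text, RNA was taken from a suspension of dissociated cells, and ribosomal RNA was depleted during library preparation. All 8 libraries share the one line and the wild-type genotype, and no agent is named for either stage.

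In the early mouse embryo the primitive endoderm forms beside the pluripotent epiblast and gives rise to the visceral and parietal endoderm of the yolk sac, whereas the definitive endoderm arises later from the primitive streak and builds the gut. SOX7 and SOX17 act in early extraembryonic endoderm, HNF4A drives the metabolic and secretory genes of visceral endoderm and liver, and FOXA proteins open chromatin at endoderm enhancers. Cubilin has no membrane anchor of its own and is carried to the surface by amnionless. In visceral endoderm and kidney tubule the pair takes up nutrients and carrier proteins together with the large receptor megalin.

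Each library held 13525255 to 17843651 estimated counts at day 10 and 11242568 to 15808039 at day 0. The stage labels were checked with marker genes. All 8 pluripotency genes tested, among them Pou5f1 and Esrrb, were lower at day 10, and their summed level was 184 to 249 CPM (counts scaled to 1000000 per library) at day 10, against 2380 to 2743 CPM at day 0. All 7 tested genes of 8 cardiomyocyte markers, among them Tnnt2 and Ryr2, were higher at day 10 (Tnnt2 and Myl7 reached 10 counts in no day 0 library), with a summed level of 409 to 651 CPM at day 10, against 50.9 to 62.9 CPM at day 0. Whether the 4 libraries of a stage were grown as independent cultures is not stated, so the p-values below measure only the spread between these libraries, which may be technical. The labels name no batch, and any batch difference along the 2 stages cannot be told apart from differentiation.

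The 3 FOXA genes and Hnf4a were higher at day 10, Sox7 was lower, and Sox17, Cubn and Amn were not called in edgeR's fit of all 8 libraries with no further term. Some other fits called Sox17, Cubn or Amn lower, and these are given further below. A gene was called when its p-value from edgeR's quasi-likelihood test, adjusted by Benjamini-Hochberg over the 15097 genes tested, was below 0.05. Of all genes tested, 82.1% were called, 42.7% as higher and 39.4% as lower at day 10, so that a call alone sets none of these genes apart. Against a change of 2-fold, a stricter test that 41.4% of all genes passed (24.1% higher and 17.3% lower), Foxa1, Foxa3 and Hnf4a were higher and Sox7 was lower. The stricter call of Foxa3 was lost with DESeq2 (adjusted p = 0.076) and by limma on log2(TPM + 1) (adjusted p = 0.591), which leaves 2 genes higher by over 2-fold. Each of the 8 passed the filter on low counts, but Foxa1 and Foxa3 did so through their day 10 libraries alone and therefore had to differ. The CPM ranges of the days did not overlap for Foxa1, Foxa3 and Hnf4a, which were higher at day 10, and for Sox7, which was lower. Ranges did not overlap in 77.9% of all genes tested, with day 10 higher in 40.8% and lower in 37.2%. In bulk RNA, fewer cells of a type and less RNA per cell cannot be told apart, which holds for every change given here.

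**Figure D1:**
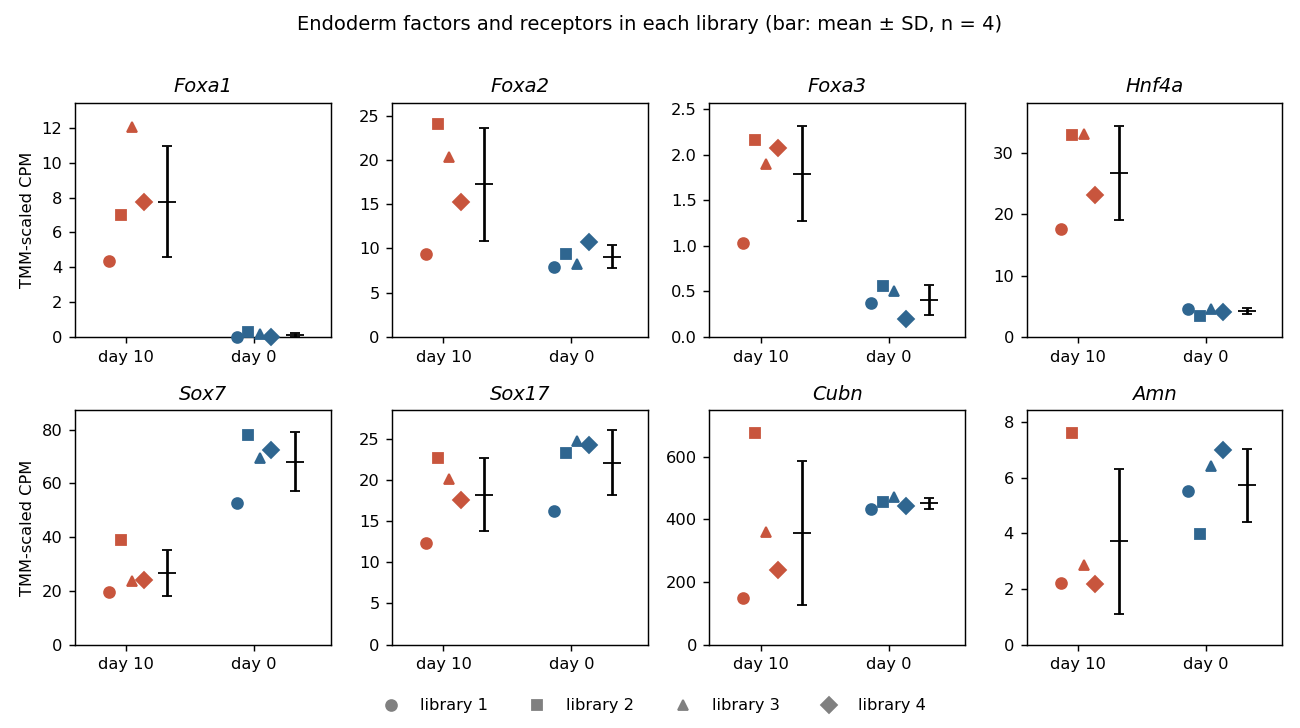
TMM-scaled CPM of each gene (vertical axes, each starting at 0) in the 4 day 10 libraries (red) and the 4 day 0 libraries (blue), with marker shapes for library numbers and a bar for the mean ± SD. The groups do not overlap for Foxa1, Foxa3, Hnf4a and Sox7, while the day 10 libraries of Cubn run from 150 to 676 CPM around tightly grouped day 0 libraries.

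Foxa1, a pioneer factor of gut and lung endoderm on chromosome 12, had 4.34, 6.98, 12.05 and 7.73 CPM in the day 10 libraries 1 to 4, against 0, 0.28, 0.17 and 0 CPM in the day 0 libraries. The day 10 libraries all lay above the day 0 libraries, where 6 estimated counts were found in all and 2 of 4 libraries had none. As Foxa1 passed the low-count filter through day 10 alone, it had to differ, and its p-value gives no support of its own. Its log2 change was 5.98 ± 0.57 (SE; adjusted p = 6.17e-07, edgeR), and 5.14 by limma on log2(TPM + 0.1). With 1 added to the TPM the log2 change came to 2.53, since the added value then outweighs the day 0 level.

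The Foxa1 promoter, 250 bases before and 50 after the RefSeq start (GRCm38.p6, chr12:57546062-57546361, minus strand), is shown because Foxa1 had the largest log2 change of the 8 genes. Of its 475 counts at day 10, 474 were assigned to Foxa1-201, which starts there. Capitals mark a match to the forkhead motif TGTTTAC, read on the opposite strand, at positions 110 to 116 of the window.
Foxa1: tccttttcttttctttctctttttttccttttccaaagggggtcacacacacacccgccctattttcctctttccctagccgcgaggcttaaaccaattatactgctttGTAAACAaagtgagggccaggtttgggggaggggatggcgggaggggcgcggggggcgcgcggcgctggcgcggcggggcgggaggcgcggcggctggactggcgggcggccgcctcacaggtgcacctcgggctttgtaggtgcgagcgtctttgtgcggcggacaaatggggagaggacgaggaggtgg
This motif, searched on both strands, occurs in 3.65% of all 32851 promoter windows of this length. The match is a description of the letters and says nothing of binding.

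Foxa2, which marks visceral and definitive endoderm and also the node and floor plate (chromosome 2), had 9.35, 24.08, 20.30 and 15.30 CPM in the day 10 libraries 1 to 4, against 7.93, 9.40, 8.25 and 10.73 CPM in the day 0 libraries. In CPM, library 1 of day 10 lay inside the day 0 range and the other 3 lay above it. In TPM the ranges did not overlap, with 9.91 TPM the lowest at day 10 and 8.41 TPM the highest at day 0. On the log2 scale the change was 0.92 ± 0.25 (SE; adjusted p = 0.00558, edgeR), and it did not pass the test against 2-fold (adjusted p = 0.667).

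Foxa2 transcripts begin at more than one start. At day 0 all 483 counts were assigned to Foxa2-202. At day 10, 967 counts were assigned to Foxa2-202, while 101 counts (9.46% of the gene) were assigned to Foxa2-201, which starts further upstream. Those 101 counts lay in library 2 (67.2 counts) and library 4 (33.8 counts), and libraries 1 and 3 had none. The share of Foxa2-202 in the gene's TPM was 92.8 ± 8.56% at day 10 and 100% in every day 0 library (SD, n = 4 each; exact permutation test, two-sided, adjusted p = 0.905 over 5 genes). The windows around both starts (GRCm38.p6, minus strand) are printed so that the starts can be told apart, and neither holds any of the 6 motifs searched.
Foxa2-201 start, chr2:148046920-148047219: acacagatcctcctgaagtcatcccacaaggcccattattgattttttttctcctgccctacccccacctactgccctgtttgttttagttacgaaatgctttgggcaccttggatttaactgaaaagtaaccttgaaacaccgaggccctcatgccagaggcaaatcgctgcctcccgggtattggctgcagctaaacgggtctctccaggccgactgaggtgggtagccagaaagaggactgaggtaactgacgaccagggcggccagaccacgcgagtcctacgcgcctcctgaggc
Foxa2-202 start, chr2:148045899-148046198: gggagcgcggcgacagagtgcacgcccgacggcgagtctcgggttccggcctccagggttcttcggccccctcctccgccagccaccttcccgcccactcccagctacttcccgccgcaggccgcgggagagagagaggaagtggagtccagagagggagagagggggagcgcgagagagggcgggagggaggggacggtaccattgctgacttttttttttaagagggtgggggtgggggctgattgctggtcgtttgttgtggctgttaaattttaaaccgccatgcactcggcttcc
The upstream window is 54.3% G or C, the downstream one 64.0%, and the median over all windows is 52.7%.

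Foxa3, the FOXA gene best known from gut and liver (chromosome 7), was the lowest of the family at day 10. It had 1.03, 2.16, 1.90 and 2.07 CPM in the day 10 libraries 1 to 4, against 0.37, 0.56, 0.51 and 0.20 CPM in the day 0 libraries. The groups did not overlap, though the values rest on 112 counts at day 10 and 21 counts at day 0. The log2 change was 2.14 ± 0.40 (SE; adjusted p = 0.000179, edgeR). Since Foxa3 passed the low-count filter through day 10 alone and had to differ, this p-value gives no support of its own.

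Foxa1 and Foxa3, which passed the low-count filter through day 10 alone, had to differ in level, and the values set against Foxa2 here describe that per length, in TPM. Foxa2 stood at 18.6 ± 7.26 TPM, Foxa1 at 5.37 ± 2.15 TPM and Foxa3 at 1.97 ± 0.59 TPM at day 10, against 7.33 ± 1.0, 0.057 ± 0.071 and 0.336 ± 0.138 TPM at day 0 in the same order of genes (SD, n = 4 each). The Foxa1 to Foxa2 ratio averaged -1.78 on the log2 scale at day 10 and -5.66 at day 0, a difference of 3.89 with ranges that did not overlap (exact permutation test, two-sided, p = 0.0286, adjusted p = 0.0381 over 4 ratios). The Foxa3 to Foxa2 ratio averaged -3.14 at day 10 and -4.14 at day 0 (difference 1.0, exact permutation p = 0.0286, adjusted p = 0.0381). The smallest p that 70 assignments of 8 libraries allow is 0.0286. Since 2 day 0 libraries had no Foxa1 counts, the constant added to each TPM sets the day 0 ratio: with 0.01 in place of 0.1 the differences were 5.92 for Foxa1 and 1.3 for Foxa3. With 1 added they came to 1.37 (adjusted exact permutation p = 0.0571) and -0.03 (adjusted exact permutation p = 0.971), so the change of Foxa3 relative to Foxa2 turned its sign.

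Hnf4a, the nuclear receptor of visceral endoderm, liver and gut epithelium (chromosome 2), had the largest log2 change of the 6 genes with at least 10 counts in every library. It had 17.66, 32.97, 33.16 and 23.20 CPM in the day 10 libraries 1 to 4, against 4.61, 3.48, 4.55 and 4.12 CPM in the day 0 libraries. All 4 day 10 libraries lay above all 4 day 0 libraries. This is a log2 change of 2.68 ± 0.21 (SE; 6.41-fold; adjusted p = 7.5e-08, edgeR), which lay between 2.18 and 3.04 in 19 alternative fits, passing the threshold in each.

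Hnf4a has an upstream and a downstream promoter, whose transcripts begin with different first exons. Transcripts from the downstream promoter (Hnf4a-201, Hnf4a-202 and Hnf4a-203) held 95.8% of the gene's counts at day 10 and 94.7% at day 0. The upstream promoter's Hnf4a-205 held 4.23% of counts at day 10 and 5.27% at day 0. That transcript is annotated with 431 nucleotides, so that few counts weigh much in TPM: it had 7.91, 10.96, 12.70 and 5.14 TPM in the day 10 libraries 1 to 4, against 0, 4.55, 0 and 0.94 TPM at day 0. The gene's summed TPM is raised by this, and its CPM hardly so. Hnf4a-201 is annotated with 4356 nucleotides, so the shares of counts depend on annotated length and do not measure the use of each promoter. In TPM, Hnf4a-205 held 42.2% of the gene at day 10 and 48.7% at day 0. The share of Hnf4a-201 in the gene's TPM was 48.4 ± 6.69% at day 10 and 58.4 ± 32.2% at day 0 (SD, n = 4 each; adjusted exact permutation p = 0.905 over 5 genes). Both windows (GRCm38.p6, plus strand) are printed because transcripts with counts start at each. Capitals in the upstream window mark the GATA motif AGATAA, 52 bases before the start, and capitals in the downstream window mark 2 matches to GTTAAT, a half-site of HNF1 factors, on the opposite strand, 81 and 74 bases before the start.
Hnf4a upstream, chr2:163506607-163506906: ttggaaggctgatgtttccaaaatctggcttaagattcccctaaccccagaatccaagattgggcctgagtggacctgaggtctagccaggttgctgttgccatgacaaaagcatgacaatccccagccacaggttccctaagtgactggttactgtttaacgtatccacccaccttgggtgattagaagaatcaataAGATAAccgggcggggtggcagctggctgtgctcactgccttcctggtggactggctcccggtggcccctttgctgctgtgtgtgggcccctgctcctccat
Hnf4a downstream, chr2:163546905-163547204: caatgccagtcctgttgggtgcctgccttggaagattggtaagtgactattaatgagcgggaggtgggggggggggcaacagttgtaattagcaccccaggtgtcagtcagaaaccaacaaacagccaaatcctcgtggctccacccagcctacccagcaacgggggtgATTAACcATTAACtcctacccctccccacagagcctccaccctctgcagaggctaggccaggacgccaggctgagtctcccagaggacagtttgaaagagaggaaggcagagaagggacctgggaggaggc
On either strand, AGATAA occurs in 11.2% and GTTAAT in 7.1% of all windows of this length. The windows of 6 of the 8 genes were found, 9 windows in all. Besides those named, matches lay only in a further Foxa2 window whose transcript had no counts, which holds AGATAA and GTTAAT. The forkhead motif in the form TGTTTGC (5.07% of all windows), the HNF4 motif CAAAGTC (4.44%) and the SOX motif ACAATG (12.6%) were found in none of the 9.

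**Figure D2:**
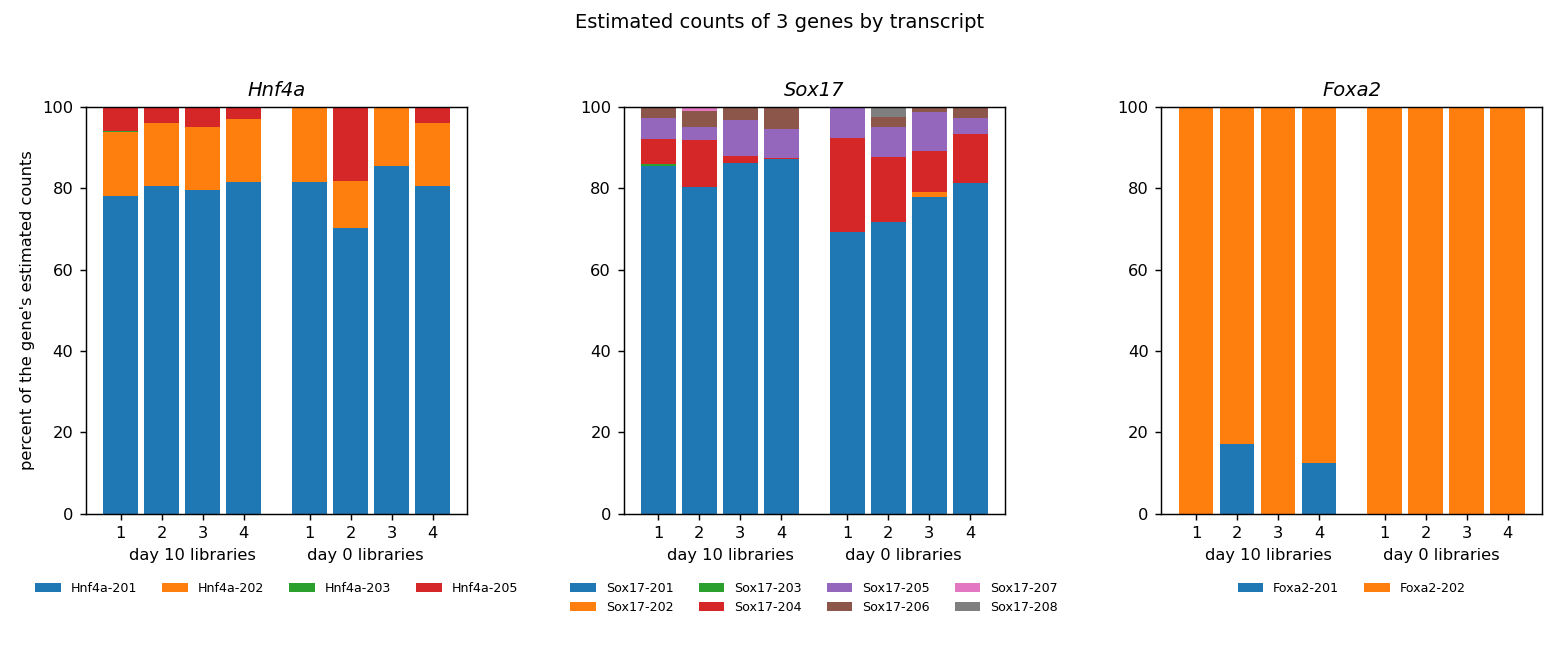
Percent of a gene's estimated counts assigned to each transcript (vertical axes, 0 to 100) for Hnf4a, Sox17 and Foxa2 in the day 10 libraries (left bars) and day 0 libraries (right bars). Hnf4a-201 leads in all 8 libraries, Foxa2-201 appears in day 10 libraries 2 and 4 alone, and Sox17-204 takes 5.19% of Sox17 counts over the day 10 libraries and 14.4% over the day 0 libraries.

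Sox7, a factor of primitive and parietal endoderm and of endothelium (chromosome 14), was the only one of the 8 genes called lower. It had 19.58, 38.96, 23.81 and 24.04 CPM in the day 10 libraries 1 to 4, against 52.72, 77.94, 69.63 and 72.39 CPM in the day 0 libraries. In CPM every day 10 library lay below every day 0 library, and library 2 was the highest on both days. In TPM the ranges overlapped, with 26.40 TPM the highest at day 10 and 26.31 TPM the lowest at day 0. The log2 change was -1.36 ± 0.21 (SE; adjusted p = 0.000206, edgeR). Against 2-fold the adjusted p was 0.0429, and the call was lost without any one of 6 of the 8 libraries and in 5 other fits, among them DESeq2.

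Sox17, its paralogue in extraembryonic and definitive endoderm (chromosome 1), had 12.29, 22.66, 20.09 and 17.60 CPM in the day 10 libraries 1 to 4, against 16.22, 23.26, 24.67 and 24.22 CPM in the day 0 libraries. The ranges overlapped, with library 1 the lowest on both days. Its log2 change was -0.28 ± 0.18 (SE; adjusted p = 0.168, edgeR). It was -0.62 with an offset for the average transcript length (adjusted p = 0.0107), a fit that called 78.0% of all genes, and -0.61 with the length trend removed (adjusted p = 0.00662). It was -0.41 without day 10 library 2 (adjusted p = 0.037; 81.9% of genes called) or without day 0 library 1 (adjusted p = 0.0428; 80.3% called).

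The balance of the SOXF genes differed between the days on the TPM scale. The log2 ratio of Sox7 to Sox17 averaged 0.08 ± 0.15 at day 10 and 0.78 ± 0.11 at day 0 (SD, n = 4 each), a difference of -0.71 (exact permutation test, two-sided, p = 0.0286, adjusted p = 0.0381). This p is the smallest possible, and the adjusted p fell below 0.05 only because both FOXA ratios had the same p. The FOXA ratios rest on Foxa1 and Foxa3, which had to differ. With 1 added to each TPM the Sox7 to Sox17 difference was -0.68 (adjusted exact permutation p = 0.0571). Without day 10 library 1, or without day 10 library 4, this difference and both of the FOXA ratios missed the threshold (adjusted exact permutation p = 0.0571 to 0.0762). The Sox7 to Sox17 difference itself hardly moved, at -0.73 without library 1 and -0.74 without library 4. As the adjustment joins all the ratios, the lost threshold does not show that this difference depends on those libraries. The Sox7 to Sox17 ratio ran from -0.14 to 0.17 at day 10 and from 0.64 to 0.91 at day 0. Within Sox17, the transcript Sox17-201 held 65.7 ± 9.20% of TPM at day 10 and 44.8 ± 8.54% at day 0, and these ranges did not overlap either, with 54.5% the lowest at day 10 and 54.2% the highest at day 0 (exact permutation p = 0.0286, adjusted p = 0.143 over 5 genes). The difference of 20.9 percentage points was 9.81 points when the share was taken from estimated counts (adjusted exact permutation p = 0.286). The shorter Sox17-204 had 2.30, 8.32, 1.06 and 0.16 TPM in the day 10 libraries 1 to 4, against 8.85, 9.55, 5.70 and 6.55 TPM at day 0. The split between transcripts is an estimate by kallisto, and Sox17 overlaps a gene of the other strand, Gm37587, with 25 counts at day 10 and 30 at day 0.

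Cubn (chromosome 2) encodes cubilin, the receptor for intrinsic factor with vitamin B12, apolipoprotein A-I and albumin. It had the highest level per length of the 8 genes on both days, with 68.1 ± 46.2 TPM at day 10 and 63.0 ± 2.16 TPM at day 0 (SD, n = 4 each). It had 149.54, 676.39, 359.20 and 237.81 CPM in the day 10 libraries 1 to 4, against 434.28, 454.66, 471.53 and 442.15 CPM in the day 0 libraries. In CPM, library 2 of day 10 lay above the day 0 range and the other 3 lay below it. In TPM, library 3 of day 10 (66.9 TPM) also lay above the day 0 range of 60.0 to 64.7 TPM. The log2 change was -0.34 ± 0.45 (SE; adjusted p = 0.508, edgeR). Without day 10 library 2 it was -0.86 (adjusted p = 0.0357).

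At 11262 nucleotides, Cubn-201 is a long transcript, and it held 99.4% of Cubn counts at day 10 and 98.9% at day 0. Where the trend of log2 change with transcript length was removed over all genes, the change of Cubn came to -2.20 (adjusted p = 0.00338, and 0.0206 against 2-fold, edgeR; 83.0% of genes called), while the median over all genes tested moved to -0.32 from 0.06. The share of higher genes among those called was 39.4% in that fit, 52.0% without the correction, and 65.8% on the TPM scale, where the median change was 0.45 and that of Cubn was -0.13. A gene of the other strand, Gm13270, overlaps Cubn and had 84 counts at day 10 and 67 at day 0.

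Amn, which encodes amnionless (chromosome 12), had 2.21, 7.59, 2.85 and 2.19 CPM in the day 10 libraries 1 to 4, against 5.53, 3.97, 6.40 and 7.0 CPM in the day 0 libraries. As for Cubn, day 10 library 2 lay above the day 0 range and the other 3 day 10 libraries lay below it. On the log2 scale the change was -0.62 ± 0.39 (SE; adjusted p = 0.166, edgeR), and without day 10 library 2 it was -1.25 (adjusted p = 0.000142). Amn stood at 5.46 ± 3.56 TPM at day 10 and 6.42 ± 1.28 TPM at day 0 (SD, n = 4 each). The log2 ratio of Amn to Cubn averaged -3.57 ± 0.30 at day 10 and -3.30 ± 0.29 at day 0 (exact permutation p = 0.229, adjusted p = 0.229), so no change in the balance of the partners passed the test.

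**Figure D3:**
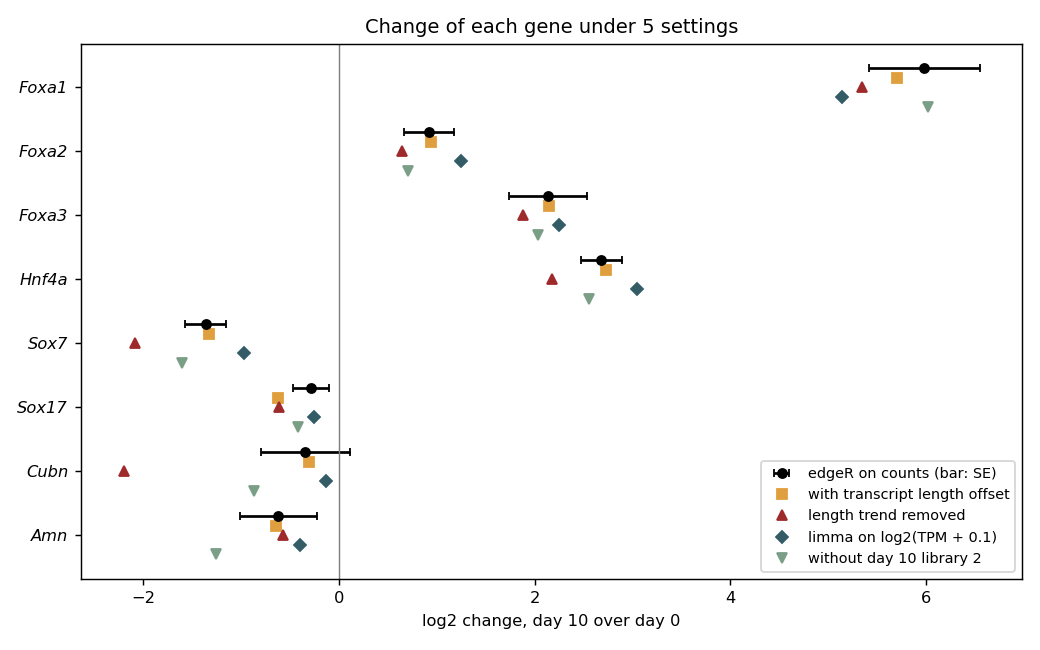
Log2 change, day 10 over day 0 (horizontal axis), of each gene in the edgeR fit with its SE and under 4 other settings. Foxa1, Foxa2, Foxa3 and Hnf4a stay right of 0 and Sox7 left of it, while Cubn moves from -0.34 to -2.20 once the length trend is removed.

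In order of TPM at day 10, Cubn led, followed by Hnf4a, Foxa2, Sox7 and Sox17, whose ranges overlapped from one to the next between 9.91 and 28.0 TPM. Amn and Foxa1 came next with overlapping ranges, and Foxa3 was last. At day 0 the order was Cubn, Sox7, Sox17, Foxa2, Amn, Hnf4a, Foxa3 and Foxa1, where the ranges of Foxa2 and Amn overlapped, as did those of Amn and Hnf4a. Hnf4a held rank 2 of 8 at day 10 and rank 6 at day 0, and Sox7 held rank 4 at day 10 and rank 2 at day 0. The short Hnf4a-205 gave 42.2% of the Hnf4a TPM at day 10 and 48.7% at day 0, and with it left out Hnf4a stood at 12.6 ± 3.71 TPM at day 10 and 1.45 ± 0.28 TPM at day 0 (SD, n = 4 each), rank 5 at day 10 and rank 6 at day 0.

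The spread among libraries was described by the SD of log2(CPM + 0.1). The SD among day 10 libraries was 0.92 for Cubn, 0.83 for Amn, 0.60 for Foxa1, 0.59 for Foxa2, 0.47 for Foxa3, 0.44 for Hnf4a, 0.42 for Sox7 and 0.38 for Sox17. The SD among day 0 libraries was 0.05 for Cubn, 0.35 for Amn, 0.99 for Foxa1, 0.20 for Foxa2, 0.52 for Foxa3, 0.18 for Hnf4a, 0.25 for Sox7 and 0.28 for Sox17. The median of the 8 genes was 0.53 at day 10 and 0.27 at day 0, and the median over all genes tested was 0.16 on both days. Foxa1 and Foxa3, with few counts at day 0, spread more at day 0 than at day 10, and the other 6 genes spread more at day 10. Counting alone gives the 8 genes 0.02 to 0.27 at day 10. One library set much of the day 10 SD in 5 genes. Without library 2 it was 0.21 for Amn and 0.17 for Sox7, and without library 1 it was 0.09 for Foxa3, 0.33 for Foxa2 and 0.18 for Sox17. At day 0 Cubn had a highest library 1.09 times the lowest, against 4.52 times at day 10. A larger SD than that of Cubn at day 10 was found in 1.75% of all genes tested.

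The same libraries were high and low in most of the 8 genes. Library 2 was the highest day 10 library in 6 of 8 genes, with library 3 highest for Foxa1 and Hnf4a, and library 1 was the lowest in 7 of 8, with library 4 lowest for Amn. Over all genes tested, library 2 was the highest in 30.3%, library 1 the lowest in 27.3%, and both held in 12.9%, against 5 of these 8. The median ratio of library 2 to library 1 was 2.04 over the 8 genes and 1.0 over all genes.

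Marker lists moved with that order to different degrees. Of 16 primitive and visceral endoderm markers, 15 were higher in library 2 than in library 1, with a median ratio of 2.24 and a summed level of 1837, 4224, 3382 and 2947 CPM in the day 10 libraries 1 to 4, against 394 to 448 CPM at day 0. The 10 parietal endoderm markers had a median ratio of 1.55, and 14 endothelial markers one of 0.97 with a summed level of 693 to 744 CPM at day 10, against 113 to 135 CPM at day 0. The 7 cardiomyocyte markers had a median ratio of 1.11. Of the 8 pluripotency markers, 6 were higher in library 2, with a median ratio of 1.79. The median was 1.69 for primitive streak and definitive endoderm markers, 1.52 for gut, liver, pancreas and lung endoderm markers and 1.497 for node markers. It was 1.31 for the partners of cubilin and amnionless and 1.02 for the factors that work with FOXA and HNF4A proteins. Higher levels in library 2 were therefore not confined to visceral endoderm markers. The part of visceral endoderm in the spread of the 8 genes was not tested. With day 10 libraries 1 and 2 both left out, a choice made after their levels were seen, Foxa1, Foxa2, Foxa3, Hnf4a and Sox7 kept their calls, and Cubn (log2 change -0.61, adjusted p = 0.000961) and Amn (-1.21, adjusted p = 0.000802) were called lower (edgeR; 79.5% of all genes called).

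**Figure D4:**
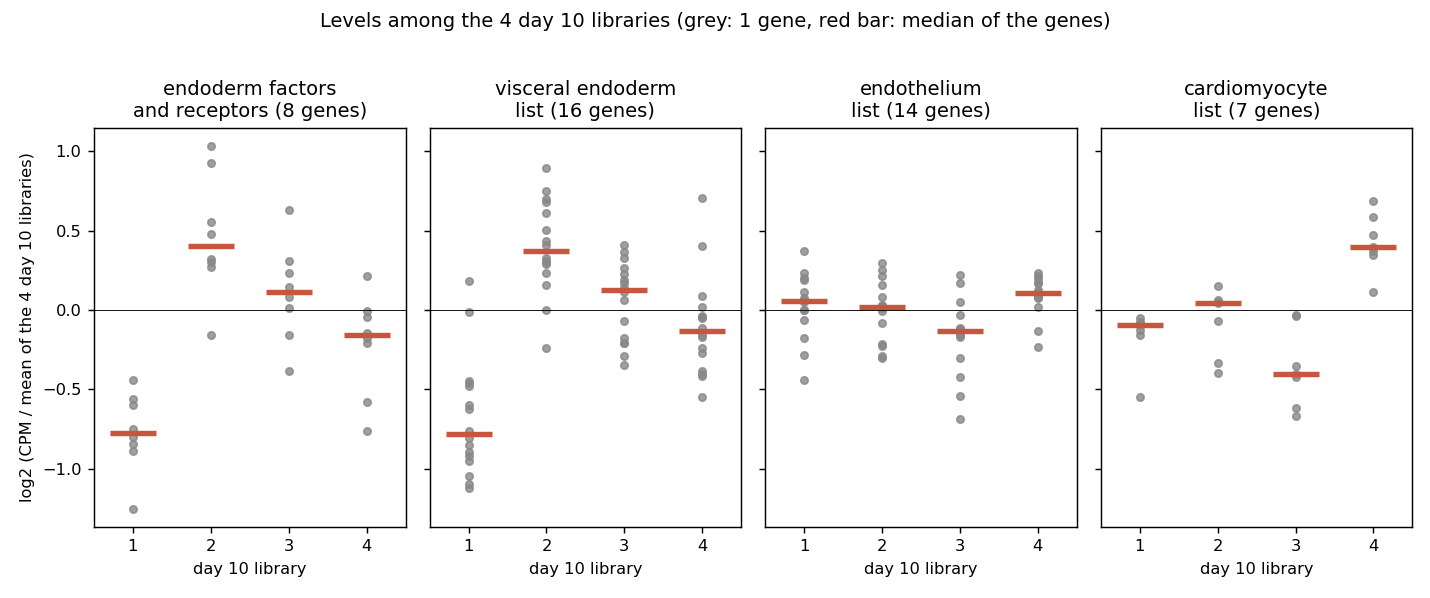
Level of each gene in the 4 day 10 libraries relative to its own mean over them (log2, vertical axis) for the 8 genes and for the tested genes of 3 marker lists. The medians of the 8 genes and of the 16 visceral endoderm markers are lowest in library 1 and highest in library 2, which not every gene follows (Amn is lowest in library 4), while the medians of the 14 endothelial markers lie near 0 in every library.

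Among the partners of cubilin and amnionless, 3 of 7 genes were higher at day 10, 2 were lower and 2 were not called, against 42.7% higher and 39.4% lower over all genes tested. The median log2 change was 0.03 (all genes tested, 0.06). Clcn5, an endosomal chloride transporter, averaged 338 ± 17.1 CPM at day 10 and 119.5 ± 6.36 CPM at day 0 (SD, n = 4 each; log2 change 1.5, adjusted p = 3.93e-11, edgeR). Fcgrt, the neonatal Fc receptor that recycles albumin, averaged 13.6 ± 2.38 CPM at day 10 and 1.72 ± 0.30 CPM at day 0 (2.97, adjusted p = 4.43e-09). Dab2, the clathrin adaptor of megalin, averaged 562 ± 121.6 CPM at day 10 and 257 ± 18.3 CPM at day 0 (1.13, adjusted p = 3.14e-05). Lrpap1, the chaperone of megalin, was lower, at 112 ± 18.6 CPM at day 10 and 173 ± 9.86 CPM at day 0 (-0.62, adjusted p = 9.52e-05). Megalin itself, Lrp2, singled out as the co-receptor after its values were seen, had 214.81, 454.30, 305.00 and 303.73 CPM in the day 10 libraries 1 to 4, against 521.56, 603.92, 506.81 and 518.33 CPM at day 0 (-0.75 ± 0.20, SE; adjusted p = 0.00884). In CPM its day 10 libraries all lay below day 0, as in 37.2% of all genes tested. Library 2 was again the highest at day 10 and library 1 the lowest. Per length, Lrp2 averaged 51.4 ± 16.9 TPM at day 10 and 63.5 ± 8.16 TPM at day 0 (SD, n = 4 each).

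Of 8 ligands taken up through cubilin or megalin, 7 were tested. Apoa1, Alb, Gc and Ttr reached 10 counts in no day 0 library, so that they were tested through day 10 alone and had to differ. The other 3, Trf, Rbp4 and Tcn2, were called higher, as were 42.7% of all genes tested. The summed level of the list was 198 to 406 CPM at day 10, against 16.6 to 19.3 CPM at day 0. Rbp4, the plasma carrier of retinol, averaged 65.7 ± 19.9 CPM at day 10 and 0.73 ± 0.36 CPM at day 0 (6.52, adjusted p = 1.29e-07, edgeR). Gc, the vitamin D binding protein, averaged 9.83 ± 3.46 CPM at day 10 and 0.10 ± 0.16 CPM at day 0 (6.56, adjusted p = 4.7e-07). Tcn2, the vitamin B12 carrier transcobalamin, averaged 33.6 ± 1.70 CPM at day 10 and 11.1 ± 0.83 CPM at day 0 (1.6, adjusted p = 1.79e-09). Gif, gastric intrinsic factor, had 0 counts on both days.

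Of the 16 primitive and visceral endoderm markers, which share Dab2 and 4 ligands with these lists, 5 (Afp, Ttr, Apoa1, Apoa4 and Apom) reached 10 counts in no day 0 library and had to differ. Of the other 11, 10 were higher, 0 lower and 1 not called, against 42.7% higher over all genes tested. The endoderm GATA factors were present on both days. Gata4 averaged 150 ± 4.91 CPM at day 10 and 80.4 ± 4.86 CPM at day 0 (0.90, adjusted p = 9.24e-09, edgeR), and Gata6 averaged 184 ± 23.3 CPM at day 10 and 56.7 ± 3.62 CPM at day 0 (1.70, adjusted p = 3.84e-10). Afp, the fetal serum protein alpha-fetoprotein, had 16264 counts at day 10 and 4 counts at day 0, or 257 ± 90.5 CPM at day 10 and 0.07 ± 0.09 CPM at day 0 (11.56, adjusted p = 6.88e-07). Apoa4 had 220 counts at day 10 and none at day 0, which makes it at least 62.6-fold higher (against 3 counts in the day 0 libraries together).

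**Figure D5:**
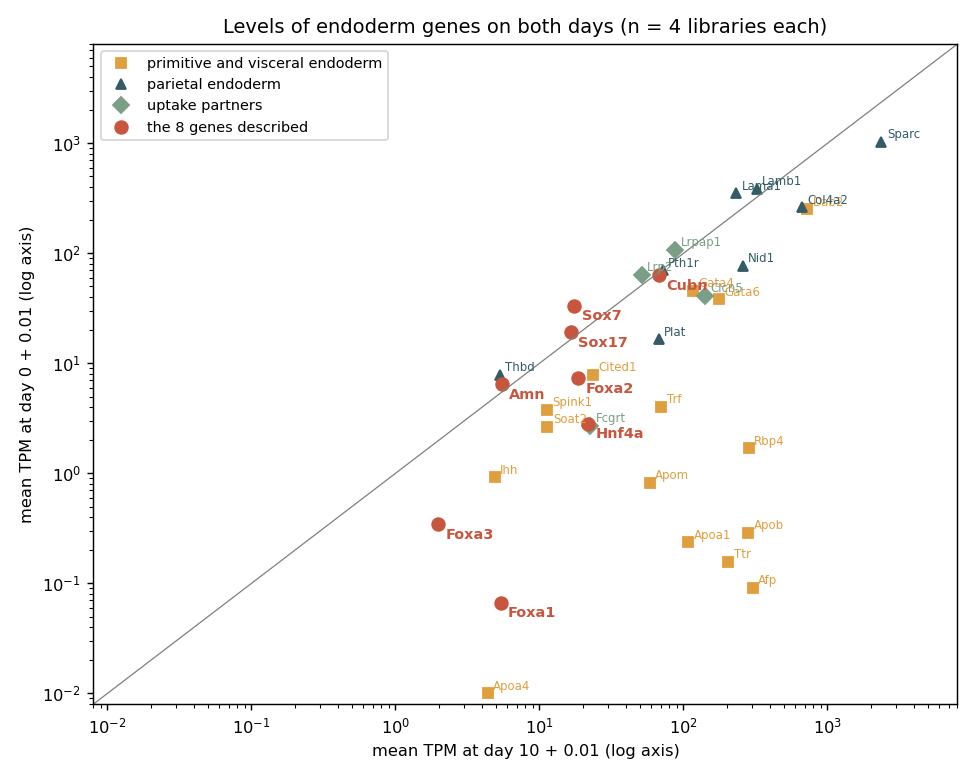
Mean TPM at day 10 (horizontal, log axis) and at day 0 (vertical, log axis), with 0.01 added, of the 8 genes and of the called genes of 3 marker lists, with Dab2 drawn once; the line marks equal levels. Cubn and Amn lie near the line with several parietal endoderm markers, and Foxa1 and secreted visceral endoderm products such as Afp and Apob lie far below it.

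The parietal endoderm markers were divided, with 4 of 10 higher, 4 lower and 2 not called, near the 42.7% higher and 39.4% lower over all genes tested. The median log2 change was 0.23 (all genes tested, 0.06). Plat, the tissue plasminogen activator, averaged 77.6 ± 3.69 CPM at day 10 and 25.6 ± 1.74 CPM at day 0 (1.59, adjusted p = 1.55e-10, edgeR). Sparc, a matrix protein that other mesenchymal cells also make, averaged 1746 ± 231 CPM at day 10 and 934 ± 52.6 CPM at day 0 (0.90, adjusted p = 2.74e-07). Lamb1, a laminin chain of basement membranes, was lower, at 494 ± 80.1 CPM at day 10 and 742 ± 115 CPM at day 0 (-0.59, adjusted p = 0.00193). The summed level of the list was 5282 to 7990 CPM at day 10 and 5645 to 6716 CPM at day 0.

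Of 9 primitive streak and definitive endoderm markers, 6 were tested, with 2 higher, 3 lower and 1 not called. The shares over all genes tested were 42.7% higher and 39.4% lower, and 1 of the higher genes was tested through day 10 alone. Nodal, the ligand that patterns the streak, averaged 0.50 ± 0.10 CPM at day 10 and 22.5 ± 2.69 CPM at day 0 (-5.45, adjusted p = 6.17e-12, edgeR). Eomes averaged 6.38 ± 2.91 CPM at day 10 and 17.8 ± 2.61 CPM at day 0 (-1.49, adjusted p = 0.000897), and Cxcr4, a surface receptor of definitive endoderm that endothelium also carries, averaged 9.80 ± 1.86 CPM at day 10 and 0.62 ± 0.36 CPM at day 0 (3.95, adjusted p = 2.63e-08). Gsc had 22 counts at day 10 and 7 at day 0, and Mixl1 had 30 at day 10 and 14 at day 0, both too few to be tested.

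Among gut, liver, pancreas and lung endoderm markers, 10 of 13 were tested. Of these, 5 reached 10 counts in no day 0 library and had to differ, Shh and Onecut1 among them. Of the other 5, 3 were higher, 1 lower and 1 not called, against 42.7% higher and 39.4% lower over all genes tested. Shh, a signal of gut epithelium and of notochord and floor plate, averaged 17.4 ± 3.57 CPM at day 10 and 0.07 ± 0.09 CPM at day 0 (7.68, adjusted p = 1.82e-10, edgeR). Onecut1, a factor of liver and pancreas, averaged 12.9 ± 1.87 CPM at day 10 and 0.46 ± 0.27 CPM at day 0 (4.78, adjusted p = 1.41e-09). Epcam, an epithelial adhesion molecule that stem cells also carry, was lower, at 31.1 ± 7.53 CPM at day 10 and 148 ± 11.96 CPM at day 0 (-2.25, adjusted p = 1.14e-07). Tat, a liver enzyme, had 0 counts on both days, and Pdx1, a pancreas factor, had 15 counts at day 10 and 2 at day 0.

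Of the factors that work with FOXA and HNF4A proteins, 12 were tested. Of these, 4 reached 10 counts in no day 0 library and had to differ, Ppargc1a among them. Of the other 8, 5 were higher, 1 lower and 2 not called, against 42.7% higher and 39.4% lower over all genes tested. Nr2f2, a nuclear receptor of mesenchyme, veins and endoderm, averaged 552 ± 56.9 CPM at day 10 and 6.44 ± 1.49 CPM at day 0 (6.41, adjusted p = 1.67e-12, edgeR). Ppargc1a, a coactivator of mitochondrial genes, averaged 12.1 ± 1.92 CPM at day 10 and 0.08 ± 0.12 CPM at day 0 (7.16, adjusted p = 8.61e-10). Nr5a2, a nuclear receptor of liver and of stem cells, was lower, at 12.5 ± 1.75 CPM at day 10 and 91.2 ± 8.63 CPM at day 0 (-2.86, adjusted p = 1.25e-11).

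Other cells in which these genes are known to be used were covered by 3 further lists, and their part in the results was not tested. Of 14 endothelial markers, which bear on SOXF genes, 4 were tested through day 10 alone. Of the other 10, 9 were higher and 1 lower, against 42.7% higher and 39.4% lower over all genes tested. Cdh5 averaged 60.6 ± 4.61 CPM at day 10 and 2.40 ± 0.30 CPM at day 0 (4.65, adjusted p = 3.69e-13, edgeR). Of 7 node, notochord and floor plate markers, which bear on Foxa2, 5 were tested. Among these, 2 were higher (Shh, through day 10 alone, and Nog) and 1 lower (T), against the same shares over all genes tested. The 7 markers summed to 25.2, 45.8, 31.6 and 24.7 CPM in the day 10 libraries 1 to 4, against 10.0 to 12.7 CPM at day 0. Noto, the defining factor of the node, had 5 counts at day 10 and 1 at day 0. Of 7 proximal tubule markers, which bear on Cubn and Amn, 2 were tested, and Slc34a1 and Slc22a6 had 0 counts on both days. Pax8, tested through day 0 alone, had 6 counts at day 10 and 88 at day 0, and the list summed to 1.25 to 2.59 CPM at day 10 and 3.53 to 4.18 CPM at day 0.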

How the data were processed

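Total RNA of the mouse embryonic stem cell line TC1 was sequenced on day 10 of differentiation and at day 0, with 4 libraries each. Each library has a table of 126126 transcripts from the authors, with estimated counts and TPM, per the file headers. The authors deposited estimated counts without scaling, and TPM values that take the effective length into account and add up to 1000000 in a library, within rounding. Transcripts were quantified with kallisto (version given as 1), per the submitters' processing notes, which also name DESeq2. The transcript reference and the build were not given in the sources used here.

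Transcripts were joined to GENCODE M21 by identifier without version. This matched 117992 (93.6%), and the 8134 others, with 1.15 to 1.23% of the counts of a library, were not used. Counts were summed over genes and rounded (61 of the 64 summed values of the 8 genes were whole within 0.01), and TPM was summed likewise. Kallisto shares reads between transcripts, and no strand setting is given, so genes overlapping on opposite strands cannot be told apart.

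Day 10 was tested against day 0 with the quasi-likelihood test of edgeR 4.0.16 in R 4.3.3 (low counts removed by filterByExpr, TMM scaling, robust fit) and with glmTreat against a log2 change of 1, adjusted by Benjamini-Hochberg over 15097 genes. The common biological coefficient of variation was 12.5%. SE is the absolute log2 change over the square root of F. CPM is scaled by TMM. Log2 ratios between genes use TPM with 0.1 added, and transcript shares use genes with at least 20 counts in every library. Both were tested with exact permutation tests, and with the replicate block by exact sign flips of the differences between equally numbered libraries. A fold against a group with 0 counts is taken against 3 counts in its libraries together. It covers counting error only, since reads that carry no molecular identifier can repeat a molecule. The code was tested on simulated data. There the edgeR test recovered 77% of 100 genes changed by a log2 of 1 and 95% of 100 changed by 2. Of its calls at an adjusted p below 0.05, 6.01% were false, so a change near 2-fold can be missed.

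Alternatives were RLE and upper quartile scaling, no low-count filter, a replicate block, an offset for average transcript length, removal of the length trend (loess, span 0.5), DESeq2 1.42.0, limma 3.58.1 on log2 TPM, other added constants, and leaving out each library. The 8 genes, the 12 marker lists and the alternatives were chosen with earlier results of these data known. Named from each list were up to 4 called genes with the smallest p in its main direction and 1 in the other, and any gene with 0 or too few counts. The text gives examples of these, and some genes are not reported here. Apoa4, Apob and Lrp2 were named after their values were seen. Promoter windows are from RefSeq (GRCm38.p6), with 250 bases before and 50 after a start. Windows of 6 of the 8 genes were found there, and a transcript was assigned to the nearest window whose start lay within 500 nucleotides.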

Additional observations from a re-analysis of the deposited data

Results flagged for a closer look

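Values were compared within each group of 4 libraries, and a gene was singled out where the gap of 1 library to the nearest other relative to the range of the group exceeded the critical value of Dixon's test for 4 values. Of 102 groups, 7 were singled out, and chance alone gives about 5% of groups.

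Amn had 7.59 CPM in day 10 library 2, and the other day 10 libraries had 2.19 to 2.85 CPM. T, a streak and notochord factor, had 2.28 CPM in the same library and 0.073 to 0.392 CPM in the others. Sox17 had 16.2 CPM in day 0 library 1 and 23.3 to 24.7 CPM in the other day 0 libraries. Plat had 23.0 CPM in that library and 26.4 to 26.7 CPM in the others. Epcam had 131 CPM in day 0 library 2 and 153 to 156 CPM in the others. Apoa1 had 0.253 CPM in day 0 library 3 and Emcn 0.0696 CPM in day 0 library 2, where the other day 0 libraries had 0. These values rest on 3 counts for Apoa1 and 1 for Emcn. Where all other libraries of a group have 0, any count is singled out.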

How the results depend on the processing

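For 41 results, 592 values were recomputed under 24 settings. Foxa1, Foxa2, Foxa3, Hnf4a and Sox7 kept their calls and directions in all 19 alternative fits, in which 56.3 to 83.0% of all genes tested were called.

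The number of the 8 genes called lower, 1 in the edgeR fit, was 2 with the replicate block and with the length offset, 3 with the length trend removed and with day 10 libraries 1 and 2 left out, and 1 to 4 when single libraries were left out. The number higher by over 2-fold, 3 in the edgeR fit, was 2 with DESeq2 and with 1 added to TPM, where Foxa3 was no longer called (adjusted p = 0.076 with DESeq2 and 0.591 with limma). The number lower by over 2-fold, 1 in the edgeR fit, was 0 without a low-count filter, with DESeq2 and in the 3 TPM settings, 2 with the length trend removed, and 0 to 1 when single libraries were left out. Sox17 was called lower with the replicate block (-0.29, adjusted p = 0.0288), the length offset (-0.62) and the length trend removed (-0.61), and ran from -0.41 to -0.16 when single libraries were left out. Cubn was called lower with the length trend removed (-2.20) and with day 10 libraries 1 and 2 left out (-0.61), and ran from -0.86 to -0.12 when single libraries were left out. Amn was called lower with those 2 libraries left out (-1.21) and ran from -1.25 to -0.45 when single libraries were left out. The calls in the proximal tubule list were 2 without a low-count filter, with the length trend removed and on unfiltered TPM, against 1, and those in the node list were 5 with the length trend removed, against 3. The cause of these differences was not tested.

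With 1 added to TPM, the differences in log2 ratio were 1.37 for Foxa1 to Foxa2, -0.03 for Foxa3 to Foxa2 and -0.68 for Sox7 to Sox17. With the replicate block they were 3.89, 1.0 and -0.71 (exact sign-flip test, adjusted p = 0.167), where the smallest p is 0.125. They ran from 3.64 to 4.11, 0.70 to 1.15 and -0.75 to -0.63 when single libraries were left out, and passed no threshold without day 10 library 1 or 4. The share of Sox17-201 differed by 9.81 percentage points (adjusted exact permutation p = 0.286) and that of Hnf4a-201 by 0.548 points when taken from estimated counts. When single libraries were left out, the share differed by -8.53 to 9.98 points for Amn-201 and by -0.111 to 1.13 points for Cubn-201, and the day 10 SD of log2 CPM ran from 0.21 to 1.01 for Amn, 0.33 to 0.72 for Foxa2, 0.091 to 0.56 for Foxa3, 0.18 to 0.46 for Sox17 and 0.17 to 0.51 for Sox7.

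The labels do not say whether equal replicate numbers mark paired libraries. Deviations of equally numbered libraries correlated weakly, at r = 0.03 to 0.049 across genes, and each day 10 library correlated best with its own number. These values do not settle whether the libraries were paired. Depth limits Foxa1 and Foxa3 at day 0, which had 6 and 21 counts.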

Other observations

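For 7 of the 8 genes, the protein-coding gene with the most similar profile over the 8 libraries was found by the Euclidean distance between log2(CPM + 0.1) profiles centred on their own mean. Nearest to Sox7 was Bnip3 at 0.230, with 64.1, 111, 69.3 and 76.1 CPM at day 10, against 166, 256, 222 and 246 CPM at day 0. Nearest to Cubn was Hkdc1 at 0.563, with 9.49, 30.4, 22.6 and 17.9 CPM at day 10, against 27.1, 29.0, 31.2 and 29.5 CPM at day 0.

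Greb1 was nearest to Hnf4a (0.457), Zfp2 to Sox17 (0.332), Mapk8ip2 to Amn (0.609), Col20a1 to Foxa3 (0.70) and Ifi202b to Foxa1 (1.05). The distance for Foxa1 was the largest of these 7, in a gene with 6 counts at day 0.

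Library 2 of day 10 also held the highest level of 2 genes that visceral endoderm is not known for, named after their values were seen. Nkx2-1, a factor of lung, thyroid and ventral forebrain, had 1.69, 11.3, 0.876 and 1.35 CPM in the day 10 libraries 1 to 4, and no counts at day 0. Sox2, which pluripotent and neural cells share, had 13.3, 46.7, 14.3 and 13.4 CPM in the day 10 libraries, against 261 ± 13.6 CPM at day 0 (SD, n = 4).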
